A study of Homo sapiens with 2 samples.

Results

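The 10 genes AGO1, AGO2, AGO3, AGO4, DICER1, DROSHA, DGCR8, TARBP2, PIWIL3 and PIWIL4 were taken by name, and each was matched to a gene identifier in the tables, 10 of the 57736 genes listed there. Poly(A)+ RNA was sequenced from HEK293T, an established line derived from human embryonic kidney and carrying the SV40 large T antigen. The labels gave a wild type genotype and 1 group of 2 libraries, replicate 1 and replicate 2, of cells that had 20 min of heat shock at 43 °C followed by 6 h of recovery at 37 °C. The paper's text gives a longer heat shock at the same temperature, and the time of the labels is used here. The labels said that replicates were lysed separately, and not whether they were cultured or heated separately. Unheated cells are not analysed here, so that the values describe cells after recovery and give no response to heat shock.

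MicroRNAs are cut from long hairpin transcripts in 2 steps. In the nucleus the Microprocessor, formed by the nuclease DROSHA and its hairpin-binding partner DGCR8, releases a short hairpin, and in the cytoplasm DICER1, helped by its partner TARBP2, trims the hairpin to a duplex. A strand of that duplex is loaded into an Argonaute protein (AGO1 to AGO4), which pairs with messenger RNAs through the seed of the microRNA and recruits the proteins that shorten their poly(A) tails. The PIWI proteins, here PIWIL3 and PIWIL4, are a related branch of the Argonaute family that is known mainly from germ cells, where they silence transposons with longer guides.

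The expected counts summed to 22529828 in replicate 1 and to 26890199 in replicate 2. Levels are given in TPM, in which counts are divided by transcript length and scaled to the same total in each library, and in CPM, in which they are scaled to the library total alone. The libraries did not agree within sampling noise, since 42.2% of 19714 tested genes differed between them, and they were kept as 2 samples. Of the kidney label, 0 of 6 genes that define mature kidney cells reached 1 TPM in each library, and UMOD and AQP2 were at 0 in both. Of 7 embryonic kidney and epithelial markers, 6 reached it, with a summed TPM of 790 in replicate 1 and 698 in replicate 2, and CDH16 was at 0. Most of that sum was VIM, a gene of mesenchymal cells, at 684 and 611 TPM. Of 4 neuronal markers, 3 reached it, with a summed TPM of 458 and 442, of which UCHL1 made up 397 and 367.

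Of the 10 genes, 8 were detected, that is, had 1 TPM or more in each library. Over all genes of the tables the same share was 26.3%, and over protein-coding genes it was 63.8%. The 8 genes were those of the microRNA pathway, and both PIWI genes stayed below the threshold in each library. The levels of the 8 ran from a mean of 9.70 TPM (AGO4) to 195 TPM (DROSHA). In bulk RNA a gene used by few cells and a gene used weakly by all cells cannot be told apart.

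**Figure D1:**
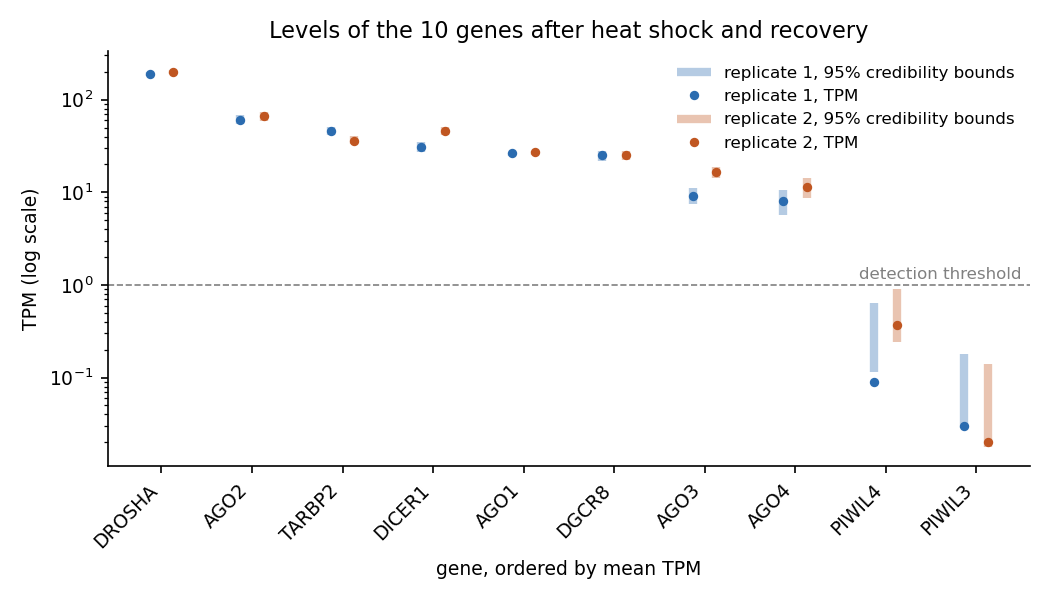
TPM of the 10 genes on a log scale, ordered by mean, with points for replicate 1 and replicate 2 and bars for the 95% credibility bounds that were deposited with each value. The 8 microRNA pathway genes lie above the dashed threshold of 1 TPM in both libraries, while PIWIL4 and PIWIL3 lie below it.

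DROSHA (ENSG00000113360; GRCh37 chromosome 5, 31400601 to 31532303, minus strand), the nuclease of the Microprocessor, was the highest of the 10. It had 188 TPM in replicate 1 and 201 TPM in replicate 2, a mean of 195 ± 9.31 TPM (SD, n = 2), from 4725 and 5728 expected counts. Its mean was above that of 95.1% of the detected protein-coding genes. Its credibility intervals, 179 to 201 and 190 to 211 TPM, overlapped.

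DGCR8 (ENSG00000128191; GRCh37 chromosome 22, 20067744 to 20099400, plus strand) codes for the RNA-binding partner that helps DROSHA to hold the hairpin. It was at 25.2 and 25.4 TPM, a mean of 25.3 ± 0.163 TPM (SD, n = 2), and its intervals, 21.9 to 28.2 and 22.4 to 27.7 TPM, overlapped. DROSHA exceeded DGCR8 7.47-fold in replicate 1 and 7.92-fold in replicate 2 by TPM. The size of this excess depended on the length that counts are divided by. It was 3.52-fold and 3.59-fold by CPM, and 3.05-fold and 3.12-fold when counts were divided by the longest transcript listed for each gene. DROSHA was therefore the higher gene in both libraries on all 3 scales.

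The DGCR8 transcript is itself known as a substrate of the Microprocessor, and the annotation places the hairpins MIR3618 and MIR1306 inside the gene on the same strand. Their mature microRNAs, as listed by RefSeq (GRCh38.p14), are shown because they are the only microRNAs whose hairpins overlapped one of the 10 genes and drew expected counts. Capitals mark the seed, bases 2 to 8.
hsa-miR-3618: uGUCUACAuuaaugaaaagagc
hsa-miR-1306-5p: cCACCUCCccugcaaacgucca
hsa-miR-1306-3p: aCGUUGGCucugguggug
These 3 seeds differ from each other. The quantifier gave MIR1306 6.70 counts in the first library and 2.63 in the second (posterior SDs 3.19 and 2.56 counts), and MIR3618 was given 0 and 0.54. Such counts are shared out by the quantifier between the hairpin and its host, since 36 and 39 of the 50-base sequences of DGCR8 also occur in MIR1306 and MIR3618. They are not a measure of the mature microRNAs, which poly(A)+ libraries do not hold. The posterior SD of DGCR8, which covers sharing with any gene, was only 0.464% of its count in replicate 1 and 0.375% in replicate 2. The lncRNA ENSG00000243762 overlaps DGCR8 on the opposite strand. It had 0 counts in both libraries, with posterior SDs of 5.36 and 5.24 counts. The 3′ end of DGCR8, at 20099400, also meets TRMT2A on the opposite strand, whose span begins at 20099398. TRMT2A had 2243 and 2253 expected counts, but the genes share only a few bases. Whether the counting used strand is not stated in the sources used here, so that reads in these overlaps cannot be told apart.

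DICER1 (ENSG00000100697; GRCh37 chromosome 14, 95552565 to 95624347, minus strand), which cuts the hairpin loop away, had 30.5 TPM in replicate 1 and 45.6 TPM in replicate 2. Its mean was 38.0 ± 10.6 TPM (SD, n = 2), above 70.1% of the detected protein-coding genes. Replicate 2 was the higher library, and the credibility intervals, 27.0 to 35.2 and 41.3 to 50.5 TPM, did not overlap. An antisense gene, DICER1-AS1, overlaps its 5′ end and had 9.37 and 9.77 TPM from 261 and 330 expected counts. MIR3173, a hairpin inside DICER1, had 0 counts in both libraries, which allows up to 3 counts in each.

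TARBP2 (ENSG00000139546; GRCh37 chromosome 12, 53894705 to 53900215, plus strand), the double-stranded RNA-binding partner of DICER1, went the other way. It had 45.6 TPM in replicate 1 and 36.0 TPM in replicate 2, a mean of 40.8 ± 6.77 TPM (SD, n = 2). The intervals, 41.5 to 50.2 and 33.0 to 40.5 TPM, did not overlap. As a result the order of these partners turned between the libraries, with DICER1 at 0.669 of TARBP2 by TPM in replicate 1 and at 1.27 in replicate 2. By CPM, in which long transcripts count for more, DICER1 was the higher gene in both, at 2.04-fold and 4.06-fold. With counts divided by the longest listed transcript it was the lower gene in both, at 0.361 and 0.726 of TARBP2. A lncRNA that overlaps TARBP2 on the opposite strand, ENSG00000270175, had 66 and 54 expected counts.

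Among the Argonautes, AGO2 (ENSG00000123908; chromosome 8), best known for cutting fully paired targets, had the highest TPM. It was at 61.0 and 66.7 TPM, a mean of 63.8 ± 4.0 TPM (SD, n = 2), and the intervals of the libraries, 54.1 to 68.2 and 59.1 to 73.1 TPM, overlapped. AGO1, AGO3 and AGO4 lie next to each other on the plus strand of GRCh37 chromosome 1, in the order AGO4, AGO1, AGO3. The gene AGO4 ends 11917 bases before AGO1 starts, and AGO1 ends 185 bases before AGO3.

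AGO1 (ENSG00000092847; 36335409 to 36396133) was at 26.5 and 27.3 TPM, a mean of 26.9 ± 0.566 TPM (SD, n = 2). AGO3 (ENSG00000126070; 36396319 to 36538101) was at 9.07 and 16.7 TPM, a mean of 12.9 ± 5.42 TPM (SD, n = 2), with intervals of 7.47 to 11.0 and 14.3 to 18.8 TPM that did not overlap. AGO4 (ENSG00000134698; 36273617 to 36323491) was at 7.96 and 11.4 TPM, a mean of 9.70 ± 2.45 TPM (SD, n = 2), with overlapping intervals. AGO1 thus had the highest TPM of the 3 neighbours in both libraries, while AGO3 and AGO4 overlapped. Of the 3, only AGO3 had libraries whose intervals were apart. A lncRNA on the opposite strand at the end of AGO1, ENSG00000271914, had 4 and 15 expected counts. No 50-base sequence was shared between any pair of the 10 genes, so that 50-base reads of one Argonaute do not match another exactly.

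Together the 4 Argonautes summed to 105 TPM in replicate 1 and 122 TPM in replicate 2. By TPM, AGO2 made up 58.4% and 54.6% of the sum, a mean of 56.5% ± 2.67 (SD, n = 2), and AGO1 made up 23.8% ± 2.12. AGO3 made up 11.2% ± 3.55 and AGO4 made up 8.49% ± 1.23. AGO2 was above AGO1 in both libraries, 2.30-fold and 2.44-fold.

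The order of AGO1 and AGO2 turned when the counts were not divided by the length in the tables. AGO1 had 3156 and 3937 expected counts, or 140 and 146 CPM, against 1422 and 1752 counts, or 63.1 and 65.2 CPM, for AGO2. AGO2 was then at 0.451 and 0.447 of AGO1. By CPM, AGO1 made up 53.7% ± 2.78 (SD, n = 2) of the 4 genes and AGO2 24.1% ± 1.40. With counts divided by the longest listed transcript, a measure added after the data were seen, the shares were 53.3% ± 2.24 for AGO1 and 22.4% ± 1.19 for AGO2.

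**Figure D2:**
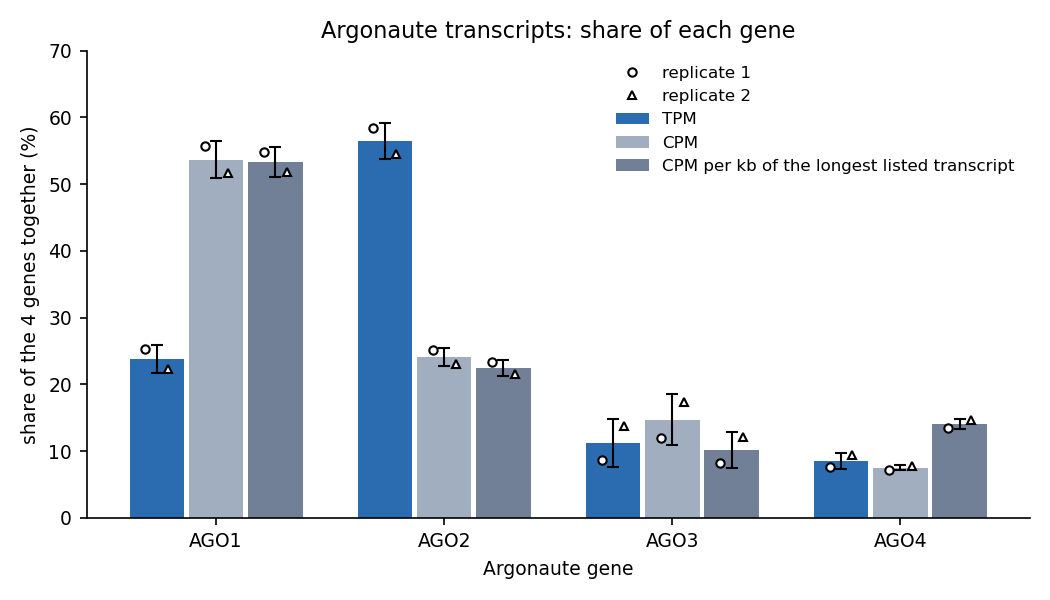
Share of AGO1 to AGO4 in the sum of the 4 genes, in percent, by TPM, by CPM and by CPM per kb of the longest listed transcript, with bars for the mean and SD of 2 libraries and points for each library. AGO2 holds the largest share by TPM (56.5%), and AGO1 holds it on the other scales (53.7% and 53.3%).

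The mean transcript length given for AGO2 was 1326 bases in replicate 1 and 1314 in replicate 2. An effective length, deposited as a separate value, is not shown here. The length shown is the mean over the listed transcripts, weighted by the level that RSEM, the quantifier, gave to each. That was 9.09% and 9.01% of the longest of its 10 listed transcripts, 14595 bases, and 7 of the 10 are 683 bases or shorter. For AGO1, with only 2 transcripts listed, of 13712 and 3996 bases, it was 6582 and 6999 bases, or 48.0% and 51.0% of the longest. For DROSHA it was 26.3% and 26.2% of the longest, for DICER1 28.8% and 30.5%, and for AGO3 21.2% and 19.6%. AGO4 stood at 39.6% and 34.8%, TARBP2 at 55.0% and 55.2%, and DGCR8 at 63.3% and 65.3%. Which of the listed transcripts these cells make was not tested, and levels between these genes are read with that limit.

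Ranked by mean TPM the order was DROSHA, AGO2, TARBP2, DICER1, AGO1, DGCR8, AGO3, AGO4, PIWIL4 and PIWIL3. Between DROSHA and AGO2, between AGO2 and TARBP2, between DGCR8 and AGO3, and between AGO4 and PIWIL4, both the TPM of the libraries and their credibility intervals were apart. TARBP2 and DICER1 overlapped in both, as did AGO3 and AGO4. DICER1 and AGO1, AGO1 and DGCR8, and PIWIL4 and PIWIL3 had TPM values that were apart and intervals that overlapped. By CPM, 4 of the 10 genes kept their place, and with the longest transcript as length 3 did. DROSHA was first, and PIWIL4 and PIWIL3 were last, under each of these 3 measures.

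**Figure D3:**
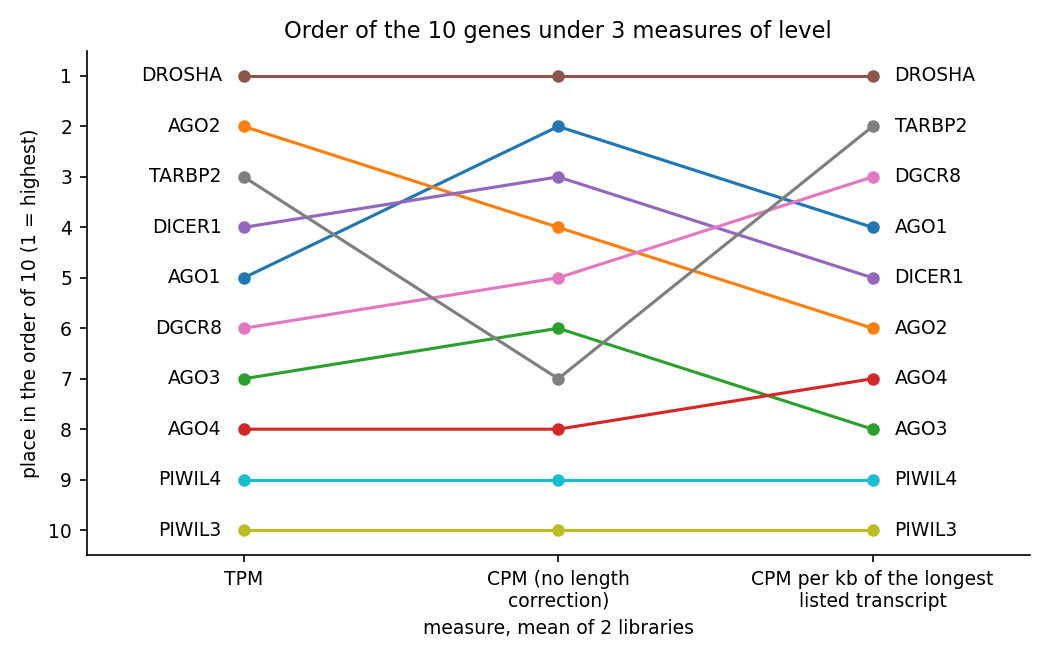
Place of each of the 10 genes in the order from highest (1) to lowest (10), by mean TPM, mean CPM and mean CPM per kb of the longest listed transcript. DROSHA, PIWIL4 and PIWIL3 hold their places on all 3 measures, while AGO2, AGO1 and TARBP2 move.

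PIWIL4 (ENSG00000134627; GRCh37 chromosome 11, 94277006 to 94354587, plus strand) had 0.09 TPM in replicate 1 and 0.37 TPM in replicate 2. These came from 6.42 and 11.8 expected counts, or 0.285 CPM (95% exact Poisson interval 0.0977 to 0.580) and 0.438 CPM (0.231 to 0.780), intervals that cover counting error only. The posterior SD was 16.8% and 8.06% of the count, the largest of the 10 genes. FUT4, which lies inside the PIWIL4 locus on the same strand, had 165 and 223 expected counts, and 504 of the 4590 sequences of 50 bases in PIWIL4 transcripts (11%) also occur in FUT4. How many of the PIWIL4 counts belong to FUT4 was not tested. In replicate 1 the TPM lay below its own credibility interval, 0.114 to 0.636, and the length was that of 1 transcript, 3759 bases, whereas in replicate 2 it was 1601 bases.

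PIWIL3 (ENSG00000184571; GRCh37 chromosome 22, 25115001 to 25170687, minus strand) had 2 counts in replicate 1 and 1 count in replicate 2. Its TPM was 0.03 and 0.02, and its CPM was 0.0888 (0.0108 to 0.321) and 0.0372 (0.000942 to 0.207). Both values lay under the limit of 3 counts that a count of 0 allows, 0.133 CPM in replicate 1 and 0.112 CPM in replicate 2. At this depth PIWIL3 was not detectable above that limit.

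The other genes of the PIWI pathway and the germline were set beside these 2. Of 20 listed genes, 4 were detected, and PIWIL1, MAEL, TDRD1, TDRD9, ASZ1, HENMT1 and GTSF1, 7 in all, had 0 counts in both libraries. PIWIL2 had 3 counts in each library. The 3 highest were the tudor-domain genes TDRKH (14.0 and 11.6 TPM), TDRD7 (7.35 and 7.21 TPM) and TDRD3 (5.33 and 8.83 TPM). The fourth was PLD6, which codes for a mitochondrial surface enzyme, at 4.01 and 3.99 TPM. TDRD6, singled out after its values were seen, had 10 and 45 counts, 0.07 and 0.29 TPM. Of 10 germ cell markers, 0 were detected. Their summed TPM was 0.87 and 1.98, and 6 of them, DAZL, DPPA3 and SYCP1 included, had 0 counts in both. Most of the sum came from SYCP3 and ACR, named after their values were seen. SYCP3 had 0.30 and 1.05 TPM from 20.0 and 79.3 counts, above 1 TPM in replicate 2 only. ACR had 0.51 and 0.89 TPM from 9.96 and 20 counts.

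The libraries were next compared with each other, to show which of the levels above repeat between replicates. Each gene was tested with a two-sided exact binomial test, adjusted after Benjamini-Hochberg over 19714 genes, which compares these 2 libraries and no conditions. Of the 10 genes, 9 had the summed count of 10 that the test required, and PIWIL3 did not. An adjusted p below 0.05 was found for 4 of the 9, where 42.2% of all tested genes passed. AGO3, AGO4 and DICER1 were higher in replicate 2 (22.1% of all tested genes were), and TARBP2 was higher in replicate 1 (20.1% of all were). A change of at least 2-fold was found for 0 of the 9, against 5.73% of all tested genes. The share of the 9 that differed was thus near that of all tested genes, and their median log2 ratio was 0.037, beside 0.022 over all tested genes. Among genes whose counts summed to 100 or more, 7887 of 13840 differed, beside 4 of 8 of the genes here.

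AGO3 had 681 and 1319 expected counts, a ratio of 1.59 between replicate 2 and replicate 1 after TMM scaling (log2 0.67, exact binomial test, adjusted p = 1.23e-22). DICER1 had 1650 and 2965 counts, a ratio of 1.48 (log2 0.56, exact binomial test, adjusted p = 1.04e-36). AGO4 had 411 and 588 counts, a ratio of 1.18 (log2 0.23, exact binomial test, adjusted p = 0.0304). Each of these genes had more scaled counts in replicate 2, while AGO1, between AGO4 and AGO3, had a log2 ratio of 0.037 and did not pass. For TARBP2, with 809 and 730 counts, replicate 1 exceeded replicate 2 by a ratio of 1.35 (log2 of replicate 2 over replicate 1, -0.43, exact binomial test, adjusted p = 3.59e-08).

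AGO1, AGO2, DROSHA and DGCR8 differed by less than 0.04 on the log2 scale. Their log2 ratios were 0.037 for AGO1, 0.019 for AGO2, -0.0042 for DROSHA and -0.036 for DGCR8, with adjusted p of 0.430, 0.840, 0.948 and 0.658 in the exact binomial test. The Microprocessor genes and the 2 most abundant Argonautes therefore had nearly equal scaled counts in both libraries. PIWIL4 had a log2 ratio of 0.68 from 6.42 and 11.8 counts and did not pass (exact binomial test, adjusted p = 0.507). At these counts a ratio of that size was not detectable.

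The ratio between the libraries moved with the GC content of the transcripts, in these genes as across the tables. Across the 13619 genes whose counts summed to 100 or more, the log2 ratio fell with GC content (Pearson's r = -0.637, Spearman's rho = -0.714, across genes, which are not independent). Among the 8 detected genes here Spearman's rho was -0.905, given as a description. DICER1 and AGO3, at 40.9% and 41.0%, had the lowest GC content of the 8 and the highest ratios, and TARBP2, at 58.9%, had the highest GC content and the lowest ratio. Of 1252 genes within 1 percentage point of the GC content of AGO3, 91.1% were higher in replicate 2, with a median log2 ratio of 0.36, and the ratio of AGO3 was above 79.2% of them. For DICER1 the corresponding median was 0.38, and its ratio was above 69.4% of 1243 genes. For TARBP2 the median was -0.21, and 5.70% of 894 genes had a lower ratio. DROSHA, at 45.7% GC, lay below the median of its 1063 neighbours, 0.062, and above 35.5% of them. For DGCR8 (54.5% GC) and AGO2 (49.8% GC) the ratio was above 76.0% and 68.4% of their neighbours.

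**Figure D4:**
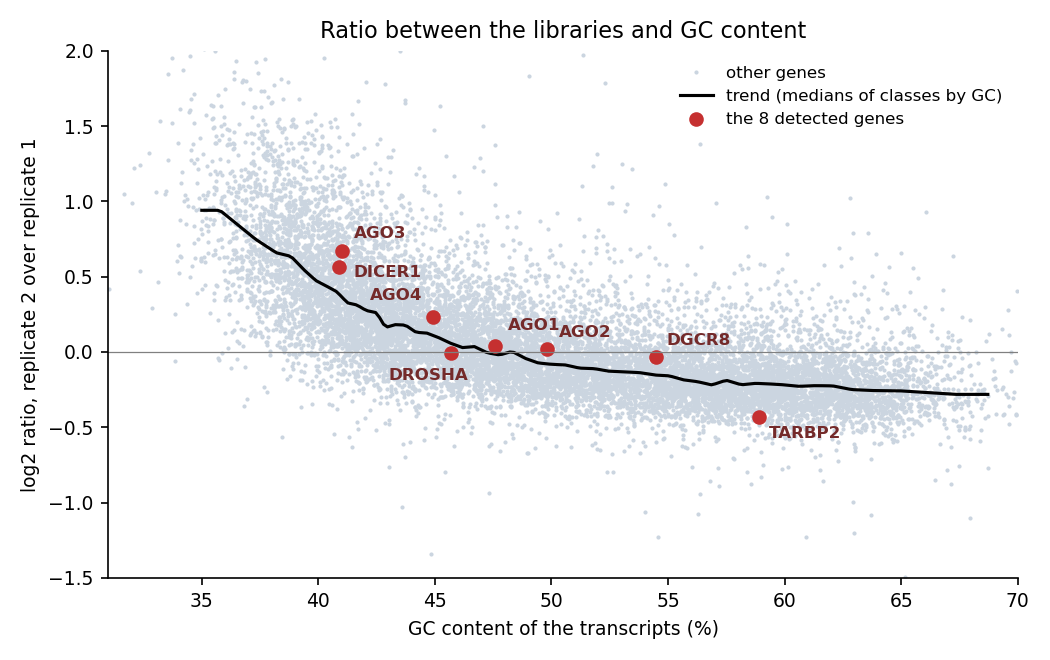
Log2 ratio of replicate 2 over replicate 1 after TMM scaling against the GC content of the transcripts in percent, for genes whose counts summed to 100 or more (grey, 64 of 13619 beyond the axes), with the median trend (line) and the 8 detected genes (red). AGO3 (0.67) and DICER1 (0.56) lie above the line at low GC content, TARBP2 (-0.43) lies below it at high GC content, and the other 5 lie between -0.036 (DGCR8) and 0.23 (AGO4).

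With the GC trend over all genes taken out of the expected share, 3 of the 9 genes still differed, where 26.7% of all tested genes did. They were AGO3 (log2 0.31, exact binomial test, adjusted p = 4.08e-05), DICER1 (log2 0.17, adjusted p = 0.000628) and TARBP2 (log2 -0.22, adjusted p = 0.0134). AGO4, at a log2 ratio of 0.13, did not pass (adjusted p = 0.365). With a length trend also removed, only AGO3 of the 9 passed, where 4887 of 19242 tested genes did. Its log2 ratio was then 0.22 (exact binomial test, adjusted p = 0.00605). With 1 group of 2 libraries, differences of library preparation and of the cells cannot be told apart.

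The levels of other genes that act with these 10 were read from 5 lists, of which 82 genes were matched. Of these, 65 were detected, beside 26.3% of all genes and 63.8% of protein-coding genes. Of the 68 tested, 44 differed between the libraries, 27 higher in replicate 2 and 17 higher in replicate 1. Over all tested genes 42.2% differed, 22.1% higher in replicate 2 and 20.1% higher in replicate 1. With the GC trend removed, 32 differed, 10 higher in replicate 2 and 22 higher in replicate 1, so that the balance of directions turned. Over all tested genes that correction left 26.7%, of which 2602 genes were higher in replicate 2 and 2541 in replicate 1. A change of at least 2-fold was called for 3 of the 68, TUT7, XRN1 and TDRD6, each higher in replicate 2. That is near the 5.73% of all tested genes, where 969 of the 1129 genes called were higher in replicate 2 as well. Over the 68 the median log2 ratio was 0.033, beside 0.022 over all tested genes. Where counts summed to 100 or more, 45 of 65 pathway genes differed, beside 7887 of 13840 of all genes.

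Of 13 factors that act with the Microprocessor in the nucleus, 13 were detected, with a median of 160 TPM, and 11 of 13 differed between the libraries, 5 higher in replicate 2 (42.2% of all tested genes differed, and 22.1% were higher in replicate 2). The highest was HNRNPA1, an RNA-binding protein that remodels some hairpins, at 1400 and 1526 TPM. DDX5, a helicase that associates with DROSHA, was at 666 and 748 TPM, and KHSRP, which binds the loops of some precursors, was at 716 and 626 TPM. The lowest was SMAD4, at 31.1 and 36.6 TPM, so that each gene of this list was above DGCR8 by TPM.

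Of 13 genes of nuclear export and the Dicer step, 12 were detected, with a median of 31.5 TPM, and 8 of 13 differed, 5 of them higher in replicate 2, beside the same 42.2% and 22.1% of all tested genes. RAN, the GTPase that powers export, was at 1003 and 881 TPM, and XPO5, the exportin that carries the hairpin out of the nucleus, was at 124 and 119 TPM. ADAR, which edits double-stranded RNA, was at 111 and 113 TPM. TUT7, a terminal uridylyl transferase that adds U to hairpin precursors, had 13.4 and 32.0 TPM, and its log2 ratio was 1.00 (0.57 with the GC trend removed). LIN28A, which blocks the maturation of let-7, was the gene below the threshold, at 0.14 and 0.20 TPM from 10 and 14 counts. Its paralogue LIN28B, which has the same role and is named after its values were seen, was detected at 16.2 and 27.7 TPM from 1612 and 3136 counts.

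Of 13 partners of the Argonaute complex, 13 were detected, with a median of 41.1 TPM. Between the libraries 9 differed, 5 higher in replicate 2, beside 42.2% and 22.1% of all tested genes. SND1, a staphylococcal-nuclease-domain protein found in the complex, had 227 and 188 TPM. FXR1 had 90.1 and 167 TPM and its relative FMR1 had 76.9 and 129 TPM, both RNA-binding proteins that associate with Argonautes. Both had a GC content below 40%, at 39.9% and 39.6%, and with the GC trend removed their log2 ratios went from 0.57 to 0.095 and from 0.48 to -0.027. The lowest was TRIM71, at 2.84 and 2.78 TPM.

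Of 23 deadenylation and decay genes, which act on the messenger RNA after an Argonaute has bound, 23 were detected, with a median of 50.6 TPM. Of these 13 differed, 10 higher in replicate 2, again beside 42.2% and 22.1% over all. CNOT1, the scaffold of the CCR4-NOT deadenylase, had 280 and 300 TPM, CNOT3 had 128 and 117 TPM and CNOT11 had 108 and 120 TPM. PAN3, of the other deadenylase, was the lowest at 8.93 and 11.9 TPM. XRN1, the exonuclease that degrades decapped messages, had 28.4 and 72.8 TPM, a log2 ratio of 1.14 at a GC content of 37.7%, and 0.43 with the GC trend removed.

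**Figure D5:**
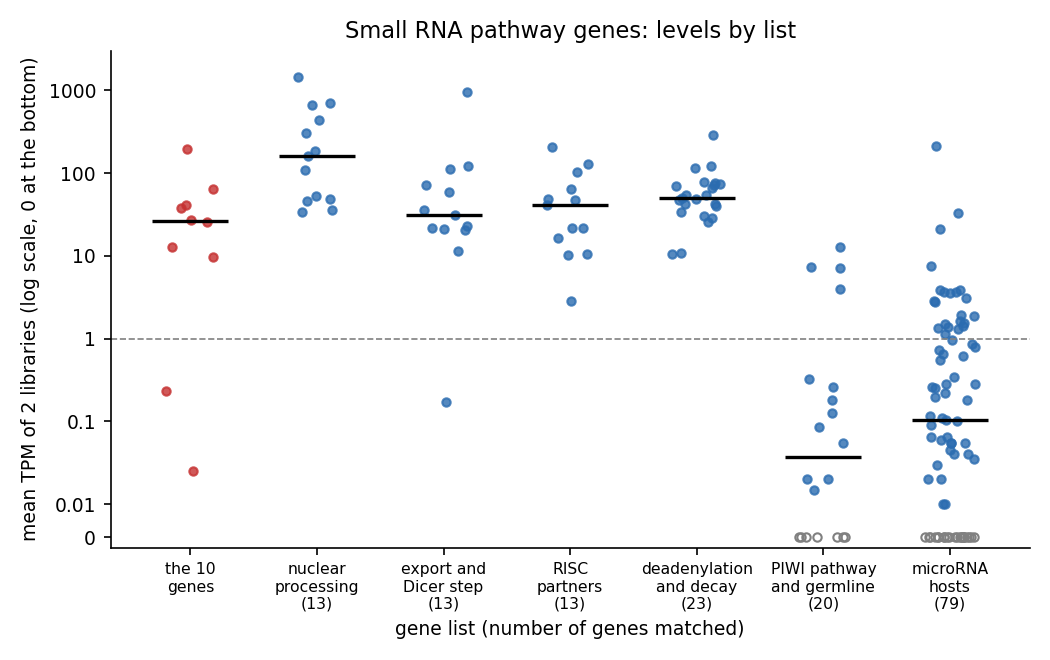
Mean TPM of 2 libraries, on a log scale with 0 at the bottom, for the 10 genes (red), the 5 lists of pathway genes and the microRNA host transcripts, with 1 point per gene, open points for genes at 0 and a bar at each median. The lists of nuclear, export, Argonaute partner and decay genes have medians of 160, 31.5, 41.1 and 50.6 TPM, while the PIWI pathway list has a median of 0.0375 TPM.

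The templates on which DROSHA acts include long non-coding host transcripts that carry microRNA hairpins. Host transcripts were taken by gene name alone, and a hairpin inside was not required. Of the 79 matched, 19 were detected (24.1%, near the 26.3% of all genes). In both libraries 22 had 0 counts, as had 26279 of the 57736 genes of the tables. By TPM the highest was MIR663AHG, at 241 and 185 TPM, but it rested on 267 and 228 counts. Its mean transcript length was 109 and 107 bases, short beside 50-base reads, and its level is uncertain. MIR222HG (GRCh37 chromosome X, 45604638 to 45629677) had 23.6 and 41.9 TPM from 575 and 1161 counts. MIR503HG (GRCh37 chromosome X, 133677149 to 133680672) had 18.7 and 23.6 TPM from 200 and 285 counts. MIR7-3HG was among those at 0.

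The mature microRNAs inside MIR222HG and MIR503HG are shown because these hosts had the highest TPM after MIR663AHG. They are only some of the candidates for processing by the genes described above, since other detected hosts also hold microRNA genes. RefSeq places the hairpins of miR-221 and miR-222 in MIR222HG and that of miR-503 in MIR503HG. Of miR-221 only the 3p form was found there, so the set shown may be incomplete. Capitals mark the seed.
hsa-miR-221-3p: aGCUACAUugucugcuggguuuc
hsa-miR-222-3p: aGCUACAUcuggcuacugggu
hsa-miR-222-5p: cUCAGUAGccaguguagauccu
hsa-miR-503-5p: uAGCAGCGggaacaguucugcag
hsa-miR-503-3p: gGGGUAUUguuuccgcugccagg
The seed GCUACAU is shared by miR-221-3p and miR-222-3p, and the other 3 seeds occur once each in this set. The hairpin MIR221 had 2 and 8 counts of its own, MIR222 had 0 in both libraries and MIR503 had 1 and 0. Levels of the mature forms were not measured in these libraries.

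Of 34 host transcripts tested, 9 differed between the libraries, 8 higher in replicate 2 and only MIR663AHG higher in replicate 1, where 42.2% of all tested genes differed, 22.1% and 20.1% in these directions. Where counts summed to 100 or more, 5 of 13 host transcripts differed, beside 7887 of 13840 of all genes. For MIR222HG the log2 ratio was 0.73 (exact binomial test, adjusted p = 3.88e-23) at a GC content of 37.7%, and it was 0.022 with the GC trend removed. For MIR663AHG it was -0.51 (exact binomial test, adjusted p = 0.000378) and -0.82. With the GC trend removed, 3 of 32 host transcripts tested differed, beside 26.7% of all genes, MIR29B2CHG and MIR600HG higher in replicate 2 and MIR663AHG higher in replicate 1, the first 2 named after their values were seen. MIR503HG, at a log2 ratio of 0.23, did not pass without that correction (exact binomial test, adjusted p = 0.174).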

How the data were processed

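Poly(A)+ RNA of 2 libraries of heat-shocked HEK293T cells was sequenced with 50-base reads. Per the labels' processing notes, Trimmomatic 0.36, STAR 2.6.1c and RSEM 1.3.1 were used with hg19 (GRCh37.p13), although the methods name featureCounts. The authors deposited, per gene, expected counts, in which reads matching several genes are shared out, with TPM and FPKM values and, as scores of their own kind, lengths, posterior SDs and credibility bounds. A table of the whole series was read as the authors' pooled values. Whether strand was used in the counting is not stated in the sources used here, so overlapping genes are uncertain.

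The members and gene lists were chosen with earlier results of these data known. Named were all 10 members and, per list, the 3 genes of highest mean TPM, the lowest, and any with a summed count of at least 100 that differed at least 2-fold. DCP1A, LHX1 and NEFL, which other lists hold, were not matched. Positions, GC content and transcripts came from GENCODE v44 lifted to GRCh37 (96.1% of identifiers matched), and microRNAs from RefSeq.

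Expected counts were rounded for a two-sided exact binomial test of each gene, with TMM factors (edgeR 4.0.16) and a summed count of at least 10. Log2 ratios used a pseudocount of 0.5. Trends with GC content and length were taken as medians of 50 classes of genes. CPM is relative to library totals. A value of 0 allows up to 3 counts. The test was checked on simulated data. R 4.3.3, Python 3.11.15, scipy 1.17.1 and DESeq2 1.42.0 were used. Alternatives covered thresholds, scaling, count minimums, edgeR's exact test given a biological coefficient of variation of 0.1 or 0.2, units, trends and leaving out each replicate.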

Additional observations from a re-analysis of the deposited data

How the results depend on the processing

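The count of 8 detected genes was the same at TPM thresholds of 0.1 and 5, by FPKM, by the lower credibility bound and without either replicate, and the count of 4 genes that differed between the libraries was the same with library totals, DESeq2 size factors and other count minimums. It was 1 (AGO3) with GC and length trends removed, where 4887 of 19242 tested genes differed. With edgeR's exact test given a biological coefficient of variation of 0.1 it was 1 (AGO3), where 1516 of 19714 tested genes passed. At 0.2 it was 0, where 166 of all 19714 passed, and 0 of 9 here also had an unadjusted p under 0.05. The 44 of 68 pathway genes became 6 and 0 at these coefficients, beside the same 1516 and 166 of all 19714 tested genes. Of host transcripts, 36 were detected at a TPM of 0.1 and 4 at 5, and the 9 that differed became 5 when 100 summed counts were required, 3 with GC or GC and length trends removed, and 2 and 0 at the coefficients of 0.1 and 0.2. These counts, like those over all tested genes, fall with an assumed spread because only larger ratios can then pass.

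The Argonaute shares by CPM were 53.7% for AGO1 and 24.1% for AGO2, and with the longest listed transcript as length 53.3%, 22.4% and, for AGO4, 14.0%. In the order, 4 and 3 genes kept their places under these measures, against 10 by posterior mean TPM and by the authors' pooled table. The log2 ratio changed sign for AGO1 (-0.078 with GC and length trends removed), for DROSHA (0.022 with library totals, 0.097 as a ratio of TPM) and for DGCR8 (0.12 with the GC trend removed, 0.080 with GC and length removed, 0.013 as a ratio of TPM), none of which passed a test. For these changes the cause was not tested. No paired analysis was possible because the labels give a single group. The longest-transcript measure and the host transcript alternatives were chosen after seeing the data. With 2 libraries and no unheated cells, no spread between conditions could be had, and counts under 20, as for both PIWI genes, limit what can be said of them.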
